A study of Homo sapiens with 60 samples.

Results

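Small nuclear and nucleolar RNAs were followed in spheroids of HCT116, a human colorectal carcinoma line, in 60 libraries that read the 3' ends of transcripts. They were chosen by name and by level: a row counted as a member when its symbol was that of a C/D or H/ACA small nucleolar RNA, a Cajal body RNA (scaRNA) or a small nuclear RNA, or was RN7SK, RMRP, RPPH1 or TERC, and when its mean deposited count over all 60 libraries was at least 3. Of 29744 rows, 402 carried such a name, 140 of these were at 0 in every library, and 42 reached the cut. The members were 13 of 196 C/D small nucleolar RNAs, 4 of 107 H/ACA small nucleolar RNAs, 5 of 24 scaRNAs, 17 of 71 small nuclear RNAs, and RN7SK, TERC and RPPH1. RMRP, with a mean count of 0.933, stayed out. Just inside the cut lay SNORA79 at a mean of 3.47 counts, SCARNA9L at 3.43 and SNORD79 at 3.37, and just outside lay SNORA33 and SNORA24 at 2.95 and SNORA67 at 2.43.

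Spheroids formed in agarose wells in high-glucose DMEM with serum. They were left untreated or received 1 of 5 exposures from day 1 to day 8 after seeding: butyrate at 1 µM, a short-chain fatty acid from bacterial fermentation; hemin at 0.1 µM, an iron porphyrin; kynurenine at 1 µM or kynurenic acid at 1 µM, both products of tryptophan breakdown; or hemin and kynurenine together. Each of these 6 treatments was sampled in 2 media, Medium 1 and Medium 2, which gave 12 groups of 5 libraries. The study sampled spheroids directly or after 3 h in a nutrient-deprived medium, but the sample names do not say which of Medium 1 and Medium 2 that was. The treatment field of the labels gives all 60 samples as untreated and nutrient-rich, which conflicts with the sample names, and it was not used, so the media are compared only by name. The table names libraries by their plate well. Medium 1 libraries fill wells A1 to F4 and Medium 2 libraries wells G4 to D8, counted down the columns of the plate, so medium and plate position cannot be told apart. All groups came from 1 cell line, and nothing in the labels says whether the 5 biological replicates were separate cultures, so the tests measure the spread between these libraries.

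Small nucleolar RNAs guide the chemical modification of ribosomal RNA. Those of the C/D class pair with the site of 2'-O-methylation and carry a box C and a box D, and those of the H/ACA class guide pseudouridylation and end in a short tail that follows an ACA box. U3 (SNORD3) is a C/D RNA that serves in the cleavage of the ribosomal RNA precursor instead. The scaRNAs guide the modification of spliceosomal RNAs in Cajal bodies, and U1, U2, U4atac and U6 are parts of the spliceosome. Most vertebrate snoRNAs are cut out of introns of host genes. U3, U13 (SNORD13) and the small nuclear RNAs are made from genes of their own. As mature RNAs they carry no poly(A) tail, whereas the libraries were primed from stretches of adenine. A count is therefore not a measure of the whole pool of such an RNA, and whether it came from a tailed form, a precursor or an internal run of adenine was not tested.

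The sequences of the members on which the results turn are shown first, read from the GENCODE 29 transcripts on GRCh38. Capitals mark the letters TGATGA of box C and CTGA of box D in the 2 C/D RNAs, the ACA box that stands 3 bases before the end in the H/ACA RNAs and SCARNA22, and the final run of A in RNU4ATAC. SNORD3A lies at chr17:19188016-19188232 on the plus strand, and the annotation also gives it a transcript of 699 bases from the same start. SNORD58A lies at chr18:49491283-49491347 on the minus strand, SNORA12 at chr10:100237156-100237302 on the minus strand, SNORA76 at chr17:64146339-64146471 on the plus strand, SCARNA22 at chr4:1974636-1974760 on the plus strand and RNU4ATAC at chr2:121530881-121531007 on the plus strand.
SNORD3A: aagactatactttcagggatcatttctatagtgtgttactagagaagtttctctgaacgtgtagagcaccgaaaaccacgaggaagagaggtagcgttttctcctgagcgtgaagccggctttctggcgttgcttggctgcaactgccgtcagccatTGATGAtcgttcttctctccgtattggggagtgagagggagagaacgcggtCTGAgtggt
SNORD58A: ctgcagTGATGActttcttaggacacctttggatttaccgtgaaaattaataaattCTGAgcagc
SNORA12: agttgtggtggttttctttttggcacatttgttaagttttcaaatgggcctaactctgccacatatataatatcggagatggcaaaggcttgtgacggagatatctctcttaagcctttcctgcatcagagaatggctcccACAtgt
SNORA76: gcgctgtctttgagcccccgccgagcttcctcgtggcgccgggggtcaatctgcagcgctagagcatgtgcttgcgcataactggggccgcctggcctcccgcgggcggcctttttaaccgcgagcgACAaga
SCARNA22: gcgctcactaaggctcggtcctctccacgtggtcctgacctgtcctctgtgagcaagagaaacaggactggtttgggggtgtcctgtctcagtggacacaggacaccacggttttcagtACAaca
RNU4ATAC: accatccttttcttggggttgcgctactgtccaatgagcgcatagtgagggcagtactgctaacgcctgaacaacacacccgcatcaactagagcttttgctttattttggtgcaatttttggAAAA

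A sequence was found for 39 of the 42 members. A run of at least 5 A in the transcribed strand occurred in 3 of these 39 (7.69%), namely SNORD57, TERC and SCARNA13, and in 27 of 329 (8.21%) of the named RNAs below the cut. The letters TGATGA stood within the first 50 bases of 5 of 11 C/D members (45.5%) and of 114 of 166 C/D RNAs below the cut (68.7%). The members without it there include the 5 U3 rows, near copies of each other that hold it further in. In SNORD3A it starts at base 158. RNU4ATAC, SNORA12, SNORA76, SNORD58A and SCARNA22 held no run of 5 A. No test was made of these shares.

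The members took 0.058% of all deposited counts, and between 0.018% and 0.128% of a library. Totals ran from 1346147 to 3083249 counts per library. C/D RNAs held 0.0387% of all counts, small nuclear RNAs 0.00816%, scaRNAs 0.0063%, H/ACA RNAs 0.00303% and the other 3 RNAs 0.00186%. The epithelial genes EPCAM, CDH1, KRT8, KRT18 and KRT19 were counted in all 60 libraries, VIL1 was at 0 in all 60, CEACAM5 at 0 in 55 and CLDN3 at 0 in 5. Markers of fibroblasts, immune cells and endothelium summed to 1.87 to 18.0 CPM, a count relative to the size of its library. Among them the fibroblast marker COL1A1 had a mean of 6.64 CPM and was at 0 in 1 library. The immune marker CD68 had a mean of 1.18 CPM and was at 0 in 9. COL1A2, COL3A1 and CD3E were at 0 throughout. Expression values below are CPM scaled by TMM, and fold changes are log2 values from 1 edgeR quasi-likelihood model of all 60 libraries, with p-values adjusted by the Benjamini-Hochberg method over 12118 genes and called at 0.05.

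The first comparison set Medium 2 against Medium 1 over the 6 treatments. U3, U1, U2, U4atac, SNORA12, SCARNA22 and SCARNA12 were higher in Medium 2, and SNORD58A, SNORA76, SNORA63, SCARNA9 and SNORD104 were lower. In all, 13 members were higher, 5 were lower and 24 did not pass, which is 42.9% called against 44.9% of all genes tested. The members were thus called about as often as genes at large in this comparison. Over all genes 23.3% were higher and 21.6% lower. The median log2 fold change was 0.36 over the members and 0.00 over all genes. By class, 5 C/D RNAs were higher and 2 lower of 13, and 1 H/ACA RNA was higher and 2 lower of 4. Of 5 scaRNAs 2 were higher and 1 lower, and of 17 small nuclear RNAs 5 were higher and none lower. None of the other 3 passed. The 5 higher C/D RNAs were the U3 rows, near copies of each other. The 5 higher small nuclear RNAs were RNU1-3, RNU1-4, RNU2-1, RNU2-2P and RNU4ATAC. Copies were counted row by row, so the counts, the share called and the median hold some RNAs more than once.

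**Figure D1:**
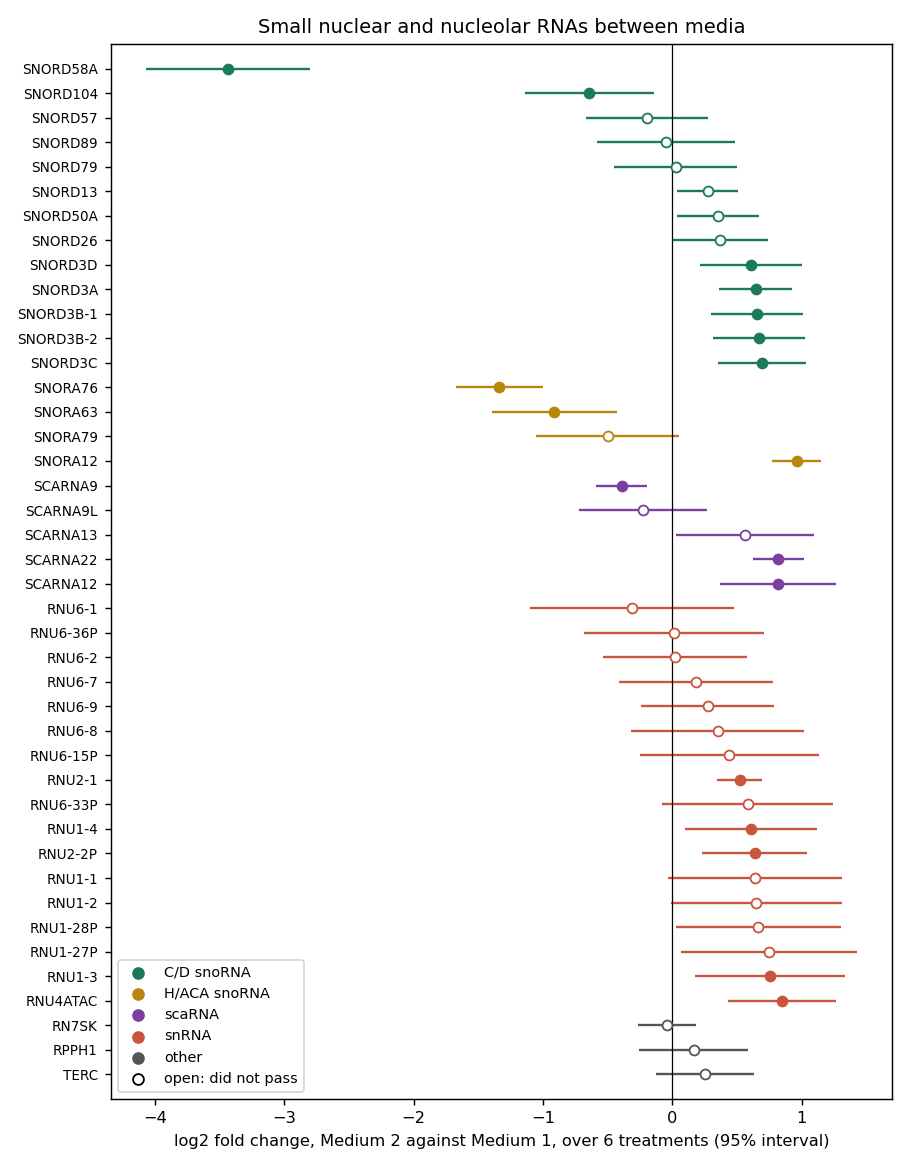
Log2 fold change of each of the 42 members in Medium 2 against Medium 1 over 6 treatments (x axis), with its 95% interval, grouped by class on the y axis; filled points passed an adjusted p of 0.05. SNORD58A stands at -3.43, and the 5 U3 rows lie between 0.61 and 0.69.

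Among C/D RNAs the 5 U3 rows moved together. Their annotated sequences are near copies: counted from the first base of SNORD3A, SNORD3C differs by G108A, SNORD3B-1 and SNORD3B-2 by A78C, and SNORD3D by A4G, C53T and A78C. Their deposited counts are mostly not whole numbers, and the sources used here do not say how reads were shared among the copies; they were therefore also summed. Summed U3 ranged from 39.5 to 676 CPM in the 30 Medium 1 libraries, with a median of 264, and from 40.8 to 966 CPM in the 30 Medium 2 libraries, with a median of 385. The ranges of the media overlapped almost fully. The mean was 259.5 ± 117 CPM in Medium 1 and 411 ± 204 CPM in Medium 2 (SD, n = 30 each), and the log2 fold change was 0.64 (SE 0.17, edgeR adjusted p = 0.00127). The single rows gave 0.64 for SNORD3A, 0.69 for SNORD3C, 0.65 for SNORD3B-1, 0.67 for SNORD3B-2 and 0.61 for SNORD3D.

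**Figure D2:**
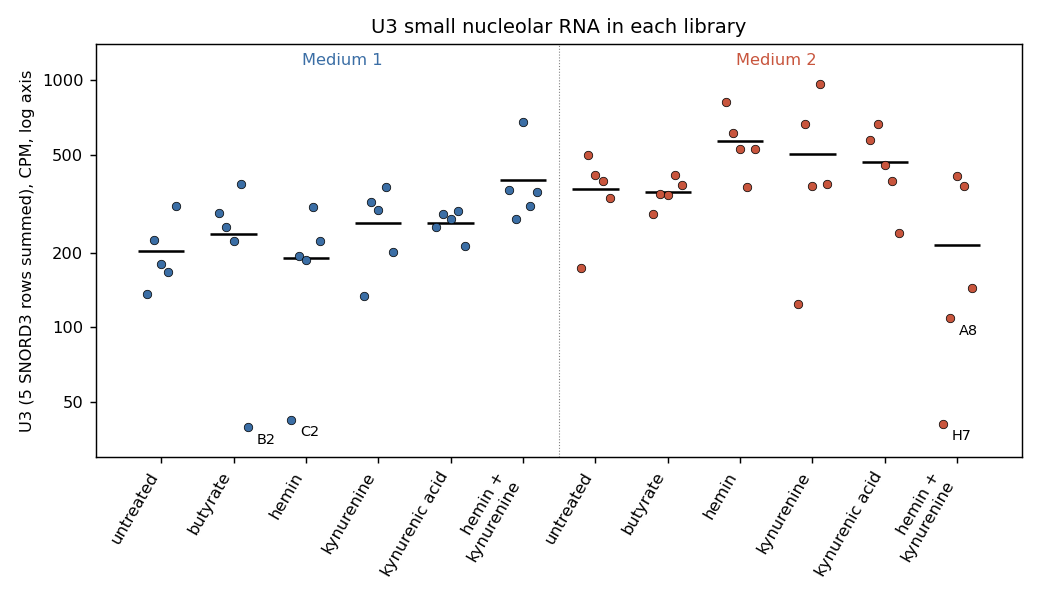
Summed U3 (5 SNORD3 rows) in CPM on a log axis for each library of the 12 groups, with the group mean as a bar; Medium 1 is blue and Medium 2 red. Libraries B2, C2, H7 and A8 are named; they hold the lowest values, from 39.5 to 108.8 CPM.

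SNORD58A, a C/D RNA that lies in the ribosomal protein gene RPL17, showed the largest fold change of the 42 members. It reached 0.527 to 9.54 CPM in Medium 1 (median 4.65) and 0 to 1.59 CPM in Medium 2 (median 0.374), where 14 of 30 libraries were at 0. The counts behind this were 263 in Medium 1 and 20 in Medium 2. That is a share 12.7 times lower in Medium 2, with an exact Poisson 95% interval of 8.03 to 21.1 that covers counting error only. The fitted log2 fold change was -3.43 (SE 0.32, edgeR adjusted p = 8.37e-14). Each treatment went the same way: 30 counts against 1 without treatment, 64 against 2 with butyrate, 49 against 3 with hemin, 26 against 6 with kynurenine, 45 against 6 with kynurenic acid, and 49 against 2 with hemin and kynurenine. In 4 of the 6 treatments the libraries of the media did not overlap.

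Other C/D members changed less. SNORD104 was lower in Medium 2, at 1.44 ± 1.04 against 2.13 ± 1.27 CPM (SD, n = 30 each; log2 fold change -0.64, SE 0.25, edgeR adjusted p = 0.0314). The call was lost without any of libraries F1, C3, D3 or F3 (adjusted p = 0.0507 to 0.0629). SNORD50A had a log2 fold change of 0.36 (edgeR adjusted p = 0.0604), SNORD13 of 0.27 (0.0505), SNORD26 of 0.37 (0.0958), SNORD57 of -0.19, SNORD89 of -0.05 and SNORD79 of 0.03, and none passed. SNORD50A and SNORD13 lay close to the threshold. Leaving out the 4 libraries with the lowest U3, chosen after seeing the data, brought them to edgeR adjusted p-values of 0.00457 and 0.0437. Both members are themselves low in those 4 libraries. Over all alternative fits by edgeR and DESeq2 the adjusted p ran from 0.00457 to 0.132 for SNORD50A and from 0.0357 to 0.184 for SNORD13.

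Of the H/ACA RNAs, SNORA12 was higher and SNORA76 and SNORA63 were lower in Medium 2. SNORA12 stood at 7.89 to 32.9 CPM in Medium 1 (median 15.3) and at 17.2 to 44.4 CPM in Medium 2 (median 31.2). Its means were 16.3 ± 5.53 and 31.5 ± 6.73 CPM (SD, n = 30 each; log2 fold change 0.96, SE 0.096, edgeR adjusted p = 1.34e-12). Of the Medium 2 libraries 11 lay above every Medium 1 library. SNORA76, which RefSeq now names SNORA50C, went the other way, from 5.05 ± 1.86 to 1.99 ± 0.923 CPM (SD, n = 30 each; log2 fold change -1.34, SE 0.17, edgeR adjusted p = 1.4e-09). It was lower in each of the 6 treatments, and the media did not overlap in 1 of them. SNORA63 fell from 2.25 ± 1.19 to 1.19 ± 0.739 CPM (SD, n = 30 each; log2 fold change -0.91, SE 0.24, edgeR adjusted p = 0.00147). SNORA79 did not pass, at -0.50.

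**Figure D3:**
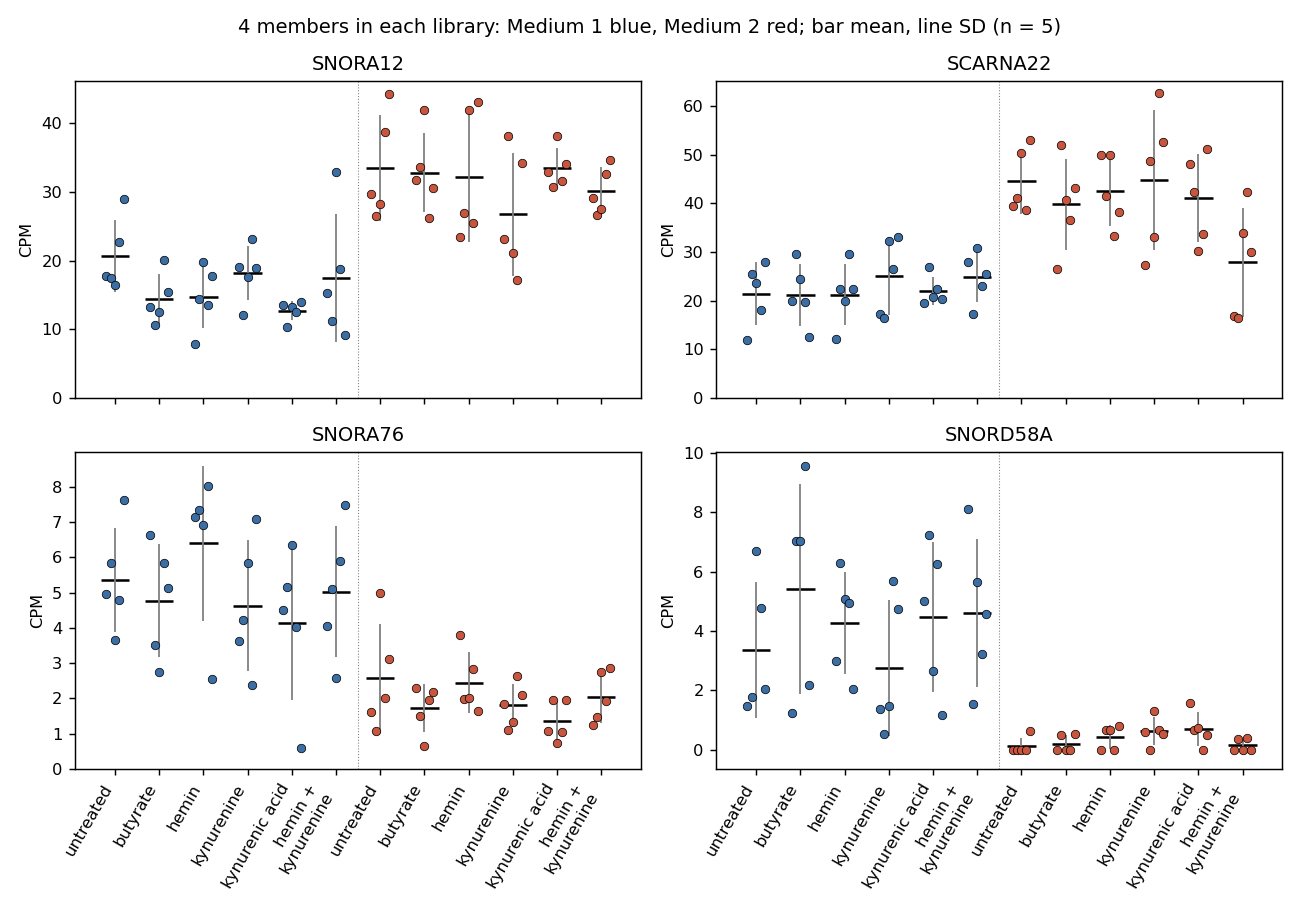
CPM of SNORA12, SCARNA22, SNORA76 and SNORD58A in each library of the 12 groups on linear axes, Medium 1 blue and Medium 2 red, with the group mean as a bar and the SD as a line (n = 5). SNORA12 and SCARNA22 have higher means in Medium 2 in all 6 treatments, and SNORA76 and SNORD58A have lower ones.

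SCARNA22 showed the clearest separation among scaRNAs. It lay at 11.9 to 33.1 CPM in Medium 1 (median 22.4) and at 16.4 to 62.6 CPM in Medium 2 (median 40.8), and 23 of 30 Medium 2 libraries exceeded every Medium 1 library. The means were 22.6 ± 5.78 and 40.1 ± 10.8 CPM (SD, n = 30 each; log2 fold change 0.82, SE 0.099, edgeR adjusted p = 4.53e-10). SCARNA12 also rose, from a median of 2.13 CPM (0 to 7.40) to a median of 3.91 CPM (0.476 to 8.14; log2 fold change 0.82, SE 0.23, edgeR adjusted p = 0.00215). SCARNA9, which guides modification of the spliceosomal U2, went down from 28.7 ± 7.16 to 21.8 ± 6.01 CPM (SD, n = 30 each; log2 fold change -0.39, SE 0.099, edgeR adjusted p = 0.000874). Its near copy on the X chromosome, SCARNA9L, did not pass at -0.23, nor did SCARNA13 at 0.56.

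Spliceosomal RNAs that passed were all higher in Medium 2. U2 pairs with the intron's branch point, and RNU2-1 rose from 12.5 ± 2.64 to 18.1 ± 4.96 CPM (SD, n = 30 each; log2 fold change 0.52, SE 0.089, edgeR adjusted p = 2.02e-06). RNU2-2P, an expressed variant that is 95.8% identical to it, had 0.64 on the log2 scale (SE 0.20, adjusted p = 0.00792). U1 binds the 5' splice site, and its 6 rows are identical in sequence, so that reads could not be told apart between them. Summed U1 lay at 6.02 to 24.9 CPM in Medium 1 and at 13.2 to 48.4 CPM in Medium 2, which is 0.63 on the log2 scale (SE 0.12, edgeR adjusted p = 8.6e-06). Row by row, RNU1-3 (0.76) and RNU1-4 (0.61) passed and the other 4 did not. The call of RNU1-4 (adjusted p = 0.0466) was lost in 43 of 60 fits without 1 library, and RNU1-3 (0.0287) lost its call without B5 or without B6.

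RNU4ATAC, the U4atac of the minor spliceosome that removes rare introns, was the most variable of the abundant small nuclear RNAs. It ran from 1.48 to 32.4 CPM in Medium 1 (median 12.9) and from 2.05 to 84.0 CPM in Medium 2 (median 22.6), and 9 Medium 2 libraries lay above every Medium 1 library. The log2 fold change was 0.85 (SE 0.21, edgeR adjusted p = 0.000698). U6, the catalytic RNA of the spliceosome, was counted in 8 rows whose sequences are at least 98.1% identical to RNU6-9. Summed U6 was 24.8 ± 6.44 CPM in Medium 1 and 28.1 ± 9.77 CPM in Medium 2 (SD, n = 30 each), and neither the sum (log2 fold change 0.18, 95% interval -0.05 to 0.40, edgeR adjusted p = 0.208) nor any of its rows passed.

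The remaining 3 members did not pass. RN7SK, the RNA that holds the elongation kinase P-TEFb inactive, was at 11.02 ± 2.84 CPM in Medium 1 and 10.7 ± 3.58 CPM in Medium 2 (SD, n = 30 each), with a log2 fold change of -0.04 and a 95% interval of -0.26 to 0.18. TERC, the template RNA of telomerase, had 0.25 (-0.13 to 0.63), and RPPH1, the RNA of ribonuclease P, had 0.17 (-0.25 to 0.59).

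Several members lie inside other genes. A containing gene on the same strand was tested for 14 members in 13 genes. SNORD58A, SNORA63, SCARNA12, SNORD26, SNORD57, SNORD89 and RNU2-2P overlap an annotated exon of that gene. The other members of these pairs lie inside an intron. SNORA12 rose while its host CWF19L1 fell (log2 fold change -0.23, edgeR adjusted p = 0.0206), and SCARNA22 rose while NSD2, a histone methyltransferase gene, fell slightly (-0.15, 0.00458). SNORD58A fell by 3.43 while RPL17 rose from 599 ± 119 to 836 ± 176 CPM (SD, n = 30 each; 0.48, adjusted p = 2.11e-07). Those 3 pairs passed in opposite directions. In 3 others the member and host passed in the same direction: SNORA63 and EIF4A2 (-0.66), SCARNA9 and CEP295 (-0.54) both fell, and SCARNA12 and PHB2 (0.21) both rose. RNU1-4 lies in CROCC and RNU2-2P in WDR74, and these containing genes did not pass. As small nuclear RNAs are made from genes of their own, these are not called hosts here.

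**Figure D4:**
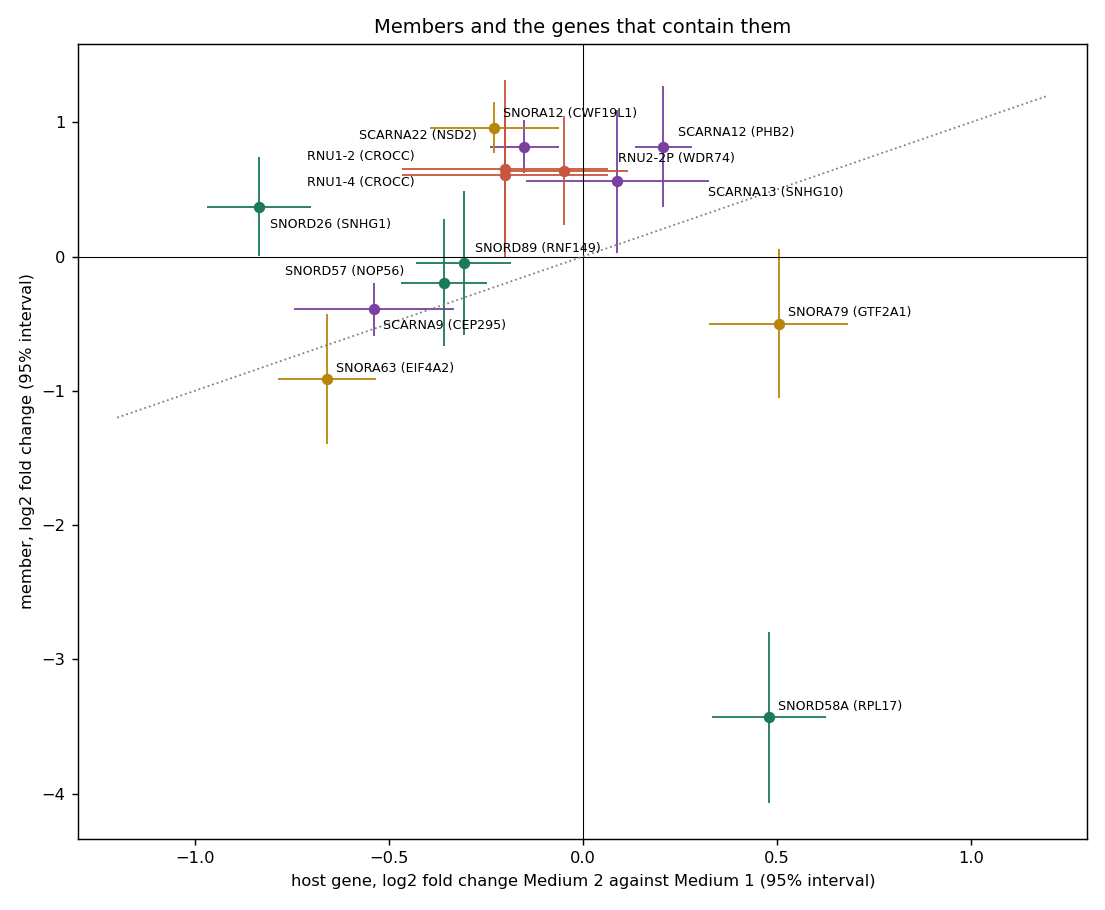
Log2 fold change in Medium 2 against Medium 1 of 14 members (y axis) and of the gene that contains each on the same strand (x axis, containing gene in brackets), with 95% intervals. The dotted line marks equal change. SNORD58A stands at -3.43 with its host at 0.48, and SNORA12 at 0.96 with its host at -0.23.

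The other 6 members with a tested containing gene did not pass, whatever that gene did. SNHG1, the noncoding host of SNORD26, fell by 0.84 on the log2 scale (edgeR adjusted p = 3.21e-16) from 207 ± 50.9 to 116 ± 20.8 CPM (SD, n = 30 each), while SNORD26 had 0.37. NOP56, the host of SNORD57 and the gene of a C/D particle protein, fell by 0.36. RNF149, the host of SNORD89, fell by 0.31, and GTF2A1, the host of SNORA79, rose by 0.50. SNHG10 and CROCC, with SCARNA13 and RNU1-2, did not pass. The strand of SNORD79 and SNORD50A was not in the annotation used. Their hosts GAS5 and SNHG5 had -0.61 (adjusted p = 1.18e-10) and -0.08 (0.392). SNORA76 and SNORD104, which both fell, lie together on the same strand in SNHG25, which has no row under that name among the deposited counts. SNORA76 overlaps an annotated exon of SNHG25, and SNORD104 lies inside an intron. Whether reads of SNHG25 were counted to them was not tested. Whether a read inside a host was given to the member or the host by its strand is not given.

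Treatment by treatment, SCARNA22 and SNORD58A were the members that passed between the media in untreated spheroids, 2 of 42 (1 higher and 1 lower) against 5.97% of all genes (2.76% higher and 3.21% lower). SCARNA22 measured 11.9, 25.6, 23.7, 18.0 and 27.9 CPM in the untreated Medium 1 libraries and 39.4, 41.04, 50.4, 38.7 and 53.1 CPM in the Medium 2 libraries. The groups did not overlap (log2 fold change 1.05, SE 0.24, edgeR adjusted p = 0.0031). SNORD58A measured 1.48, 1.79, 6.68, 4.79 and 2.03 CPM in Medium 1, and 0 in 4 libraries and 0.625 CPM in the fifth in Medium 2 (-4.19, SE 0.94, adjusted p = 0.00213). SNORA12 (0.69, adjusted p = 0.0608) and SNORA76 (-1.06, 0.0992) kept the direction of the mean without passing.

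Within the exposures the media differed in 31 of 210 member tests (14.8%, against 12.5% of all gene tests). With hemin 9 members were higher, the 5 U3 rows among them, and 3 lower. Of all genes 22.4% were called there (11.9% higher and 10.5% lower). With butyrate 2 members were higher and 2 lower (9.51% of all genes, 5.28% and 4.23%), and with kynurenine 1 and 1 (7.89%, 4.51% and 3.38%). With kynurenic acid 5 members were higher and 2 lower (7.94% of all genes, 3.94% and 3.99%). The pair of hemin and kynurenine had 1 member higher and 5 lower (14.9% of all genes, 7.75% and 7.14%). SNORA76 passed in all 5 exposures, and SNORA12, SCARNA22 and SNORD58A passed in 4 of them each. Without 1 library the SNORA76 call was lost in butyrate (F1, E5 or F5), kynurenine (A3, B3, D3, F6, G6 or H6), kynurenic acid (G3, E7 or F7) and the pair (F4), at edgeR adjusted p-values of 0.0506 to 0.136. SCARNA22 lost its call in butyrate without B2 and in kynurenine without H2, A3, A7 or B7, and SNORA12 lost its call in the pair without F4. The SNORD58A calls were kept without any 1 of the libraries compared, as were those of the U3 rows in hemin and RNU2-1 in kynurenic acid. In hemin RNU1-4 lost its call in 5 of 10 fits without 1 library, RNU4ATAC in 6 and SCARNA9 in 6. In kynurenic acid RNU4ATAC lost its call in 7 of 10 such fits and SCARNA12 in 3. The edgeR adjusted p-values of these lost calls ran from 0.053 to 0.234.

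U3 passed in hemin alone of the 6 treatments. Summed U3 in hemin spheroids was 191 ± 95.7 CPM in Medium 1 and 570 ± 162.5 CPM in Medium 2 (SD, n = 5 each), which is 1.58 on the log2 scale (SE 0.42, edgeR adjusted p = 0.00432). With hemin and kynurenine it was 394 ± 162 CPM in Medium 1 and 215 ± 165 CPM in Medium 2 (SD, n = 5 each), which is -0.87 on the log2 scale (SE 0.41, adjusted p = 0.144). Of its rows, SNORD3A went from -0.66 to -0.21 and SNORD3C from -0.74 to -0.27 there when the 4 libraries with the lowest U3, H7 and A8 among them, were left out, a choice made after seeing the data. In hemin the same omission took SNORD3A from 1.44 to 1.21. The other 4 treatments gave 0.58 to 0.92 without passing. In the hemin and kynurenine spheroids of Medium 2, U3 was 40.8 CPM in library H7, 108.8 in A8 and 145 to 409 in the other 3, so that 2 libraries lay below the rest. SNORD13 (-0.86), SNORD26 (-1.23) and SNORD89 (-1.98) were called lower there, and each call was lost without any 1 of D4, F4, H7 or A8, as were those of SNORD26 and SNORD89 without B4 or D8 (adjusted p = 0.0563 to 0.233).

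The second question was whether the exposures changed these RNAs. No member passed for any of the 5 exposures against untreated spheroids in either medium, 0 of 420 tests by edgeR and 0 by DESeq2. Over all genes 0.0611% of tests passed. By exposure these shares were 0.00825% with butyrate, 0.0248% with hemin, 0.033% with kynurenine, 0% with kynurenic acid and 0.0248% with hemin and kynurenine in Medium 1, and 0%, 0%, 0.0165%, 0.0165% and 0.487% in the same order in Medium 2. Unadjusted p-values under 0.05 occurred in 27 member tests (6.43%) and in 7.92% of tests of all genes. The 5 exposures of a medium share its untreated libraries, so these are not independent. SNORD13 with hemin and kynurenine in Medium 1 had the smallest p of all (log2 fold change 0.90, 95% interval 0.33 to 1.47, edgeR adjusted p = 0.952), followed by RNU2-1 with kynurenic acid in Medium 2 (0.64, 0.22 to 1.07, adjusted p = 0.391) and SCARNA22 with hemin and kynurenine in Medium 2 (-0.68, -1.14 to -0.21, adjusted p = 0.166).

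The intervals show what size could be seen. For U3 with butyrate they ran from -0.61 to 1.04 in Medium 1 and from -0.85 to 0.78 in Medium 2, so that a change of up to about that size was not detectable. No difference of an exposure response between the media passed either, 0 of 210 tests by edgeR and by DESeq2, against 0.0066% over all genes (0% with butyrate, hemin and kynurenic acid, 0.00825% with kynurenine and 0.0248% with the pair). Unadjusted p-values under 0.05 occurred in 8.57% of the member tests and 6.79% of all gene tests. In that comparison the pair of hemin and kynurenine had 10 of 42 members with an unadjusted p under 0.05, all with a lower response in Medium 2, as had 4.25% of all genes. These were the 5 U3 rows, SNORD13, SNORD26, SCARNA22, TERC and RPPH1. Without B2, C2, H7 and A8 the count was 6.

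The abundant members also differed in how much libraries of 1 group varied. Within groups the SD of log2(CPM + 1) was 0.63 to 0.90 for the 5 U3 rows, 0.74 for SNORD50A, 0.91 for RNU4ATAC and 0.73 for SNORD26. Of genes at a like level, 97.4% to 99.9% varied less, and their median SD was 0.24 to 0.47. RNU2-1, at 0.31, was steadier than most: 12.7% of genes at its level varied less. RN7SK (0.39), SNORA12 (0.36), SCARNA9 (0.39) and SCARNA22 (0.40) lay between 28.5% and 85.5%.

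The spread was shared among some of the members. The lowest summed U3 values of the 60 libraries were 39.5 CPM in B2 (butyrate, Medium 1), 40.8 in H7 (hemin and kynurenine, Medium 2), 42.4 in C2 (hemin, Medium 1) and 108.8 in A8 (hemin and kynurenine, Medium 2). B2 and C2 are neighbouring wells, and H7 and A8 follow each other in the order of filling. In B2 the other 4 butyrate libraries had 224 to 381 CPM, and in C2 the other 4 hemin libraries had 188 to 307 CPM. SNORD50A, SCARNA22, SNORD13, SNORD26 and TERC were below the rest of their group, with H7 and A8 each left out of the other's comparison, in all 4 libraries, and RNU4ATAC in 3 of them. RNU2-1 was below in 1 and within the range in 3, and RN7SK was below in 2, above in 1 and within in 1. SCARNA9 was below in 3 and above in 1, and SNORA12 was below in 2 and within in 2. The totals of B2, C2 and H7 were 2513056, 2496127 and 2509910 counts and that of A8 was 2981629. The median library had 1902000 counts, so these are deep and not shallow libraries. The median total with hemin and kynurenine in Medium 2 was 2615811 counts, against 1581948 to 1941038 in the other Medium 2 groups. In the same group B8 and C8, with 2615811 and 2670533 counts, had 409 and 372 CPM of U3. A link between depth and U3 was not tested. RN7SL1, RNA of the signal recognition particle, was 14.3 CPM in B2, 2.87 in H7 and 11.7 in A8, below the other libraries of their groups (25.4 to 51.8 with butyrate and 18.6 to 36.6 with hemin and kynurenine), and 45.4 in C2, within its group. NEAT1, a long noncoding RNA of the nucleus, was 81.5 CPM in B2 and 87.5 in C2, above the other libraries of their groups (35.6 to 51.7 and 26.9 to 59.2), 15.2 in H7 and 7.28 in A8, where the other 3 had 6.69 to 14.3. What sets these wells apart was not tested.

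**Figure D5:**
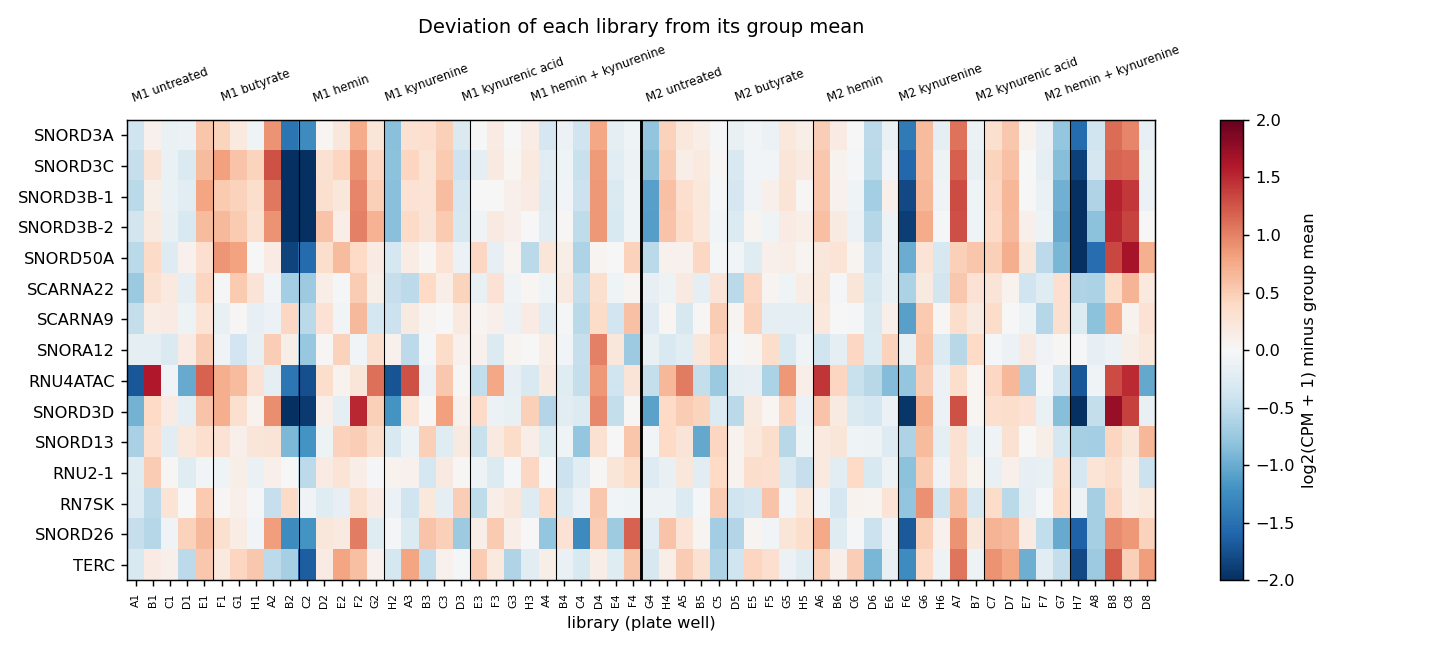
Deviation of log2(CPM + 1) from the group mean for the 15 members with the highest counts (y axis) in 60 libraries named by well (x axis), with vertical lines between groups, the thick line between media, and colours limited at -2 and 2. The U3 rows, SNORD50A, SNORD26 and RNU4ATAC are low together in B2, C2 and H7, where RNU2-1 and RN7SK lie nearer their group means, with RNU2-1 in C2 below the other 4 libraries of its group and RN7SK in H7 below B8, C8 and D8.

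The genes of the proteins that make and carry these RNAs were read from lists chosen for their roles. Only RNA was measured, so the values are transcript levels and not protein levels. Of 10 genes of C/D particle proteins tested, 4 were higher in Medium 2 and 2 lower (median log2 fold change 0.02, against 0.00 over all genes). NHP2L1, whose protein binds the box C and D motif, rose by 0.31 and NOP56 fell by 0.36. Of 6 H/ACA particle proteins 3 were higher and none lower (median 0.15), namely the pseudouridine synthase DKC1 (0.25), GAR1 (0.18) and the assembly factor NAF1 (0.23). Among Cajal body and cap proteins 3 were higher and 1 lower of 10, with GEMIN4 at 0.27, the cap methylase TGS1 at 0.23 and the export adaptor PHAX at -0.14. Of the Sm and LSm proteins, which form rings on small nuclear RNAs, 6 of 15 were higher and none lower, led by SNRPB at 0.33. Of 14 proteins specific to 1 spliceosomal particle 7 were higher and 2 lower, with SNRPB2 of the U2 particle at 0.24 and SNRPC of the U1 particle at 0.27. These shares stand beside the 44.9% called over all genes.

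Genes of transcription and turnover factors, again read as transcript levels, were mixed. The counts below stand beside 44.9% of all genes called, 23.3% higher and 21.6% lower. Of 20 SNAPc and Integrator genes 5 were higher and 4 lower: INTS6 rose by 0.72, and SNAPC3 and SNAPC4, which bind the promoters of small nuclear RNA genes, fell by 0.38 and 0.71. Of 16 RNA polymerase III genes 5 were higher and 5 lower, with the initiation factor BDP1 at -0.54. Of 7 genes of the 7SK particle, MEPCE, which caps RN7SK, rose by 0.77, CCNT1 rose by 0.39 and LARP7, which holds the RNA's end, fell by 0.34, while RN7SK itself did not pass. Of 11 ribonuclease P and MRP proteins 5 were higher and 1 lower, led by RPP40 at 0.50. Of 4 telomerase genes PAPD5, a polymerase that tails nuclear RNAs, passed at 0.32. Of 18 nuclear exosome genes 6 were higher and 3 lower, with the nuclease DIS3 at 0.26 and the adaptors RBM7 at 0.54 and ZFC3H1 at -0.48. Of 19 noncoding snoRNA hosts 4 were higher and 8 lower, and the lowest were SNHG12 at -1.73, SNHG3 at -1.18 and SNHG1 at -0.84. Among 10 other RNAs without a poly(A) tail or kept in the nucleus 1 was higher and 3 were lower: NEAT1 at -2.51, MALAT1 at -0.79 and VTRNA1-3 at -0.90.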

How the data were processed

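RNA from 60 HCT116 spheroid samples was sequenced as QuantSeq 3' FWD libraries with molecular identifiers, from 48 ng of RNA and 18 PCR cycles, per the labels' protocols. The labels name the molecule as cytoplasmic RNA and give no fractionation. The authors deposited 1 table of estimated counts per gene; the submitters' processing notes name Salmon 1.5.2, STAR, cutadapt 3.4, UMI-tools 1.1.2, FastQC 0.11.9 and the GRCh38 build. No source used here gives the annotation, the strand setting or the handling of reads with several matches. Of the values above 0, 21.4% were not whole, and all were rounded before testing.

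Columns carry a group and a well but no replicate number. Genes with a mean count of at least 3 were kept, the same cut that chose the members, so that all 42 were tested; this filter does not look at groups. TMM scaling and quasi-likelihood F-tests (edgeR 4.0.16, R 4.3.3, two-sided) were run on all 60 libraries with 12 group means, with Benjamini-Hochberg adjustment over 12118 genes and a threshold of 0.05. Near-identical U1, U2, U3 and U6 rows were also summed in each library and tested in the same model. Totals of 1346147 to 3083249 counts set the precision: a member at the cut holds a few counts per library. Alternatives were DESeq2 1.42.0, other scaling and filters, unrounded counts, plate row, thinning and leaving out libraries.

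The members and gene lists were chosen with earlier results of these data known. Named are the 15 members with the highest mean count, every member past the threshold, the rows at the cut, hosts, and up to 3 genes per list with the smallest p. SNORD57, SNORD79, RPPH1, U6 as a sum, and other members in lists of values were named after their values were seen. Positions came from RefSeq by symbol (40) or older symbol (2), hosts and sequences from GENCODE 29.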

Additional observations from a re-analysis of the deposited data

Results flagged for a closer look

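For U3 and the members named in each comparison, 144 sets of 5 libraries were searched for a library that lay far from the other 4. There were 7 such values, where about 5% of independent sets would be flagged by chance. These sets share libraries and members that vary together, so the count cannot be set against that share. Libraries D4, B2 and C5 were each flagged for different members. What lies behind the flagged values was not tested. Summed U3 was 676 CPM in library D4 (hemin and kynurenine, Medium 1) and 273 to 359 CPM in the other 4, and RN7SK was 15.9 CPM in the same library and 8.54 to 10.2 CPM in the others. In the butyrate libraries of Medium 1, B2 had 38.03 CPM of SCARNA9, where the others had 25.1 to 28.6 CPM, and 6.58 CPM of SNORD13, where they had 14.1 to 16.2 CPM. Among the untreated libraries of Medium 2, C5 had 11.2 CPM of RN7SK against 6.09 to 7.34 CPM, and 0.625 CPM of SNORD58A, which is 1 count, against 0 in the others. SNORA76 was 2.54 CPM in G2 (hemin, Medium 1) and 6.92 to 8.02 CPM in the other 4.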

How the results depend on the processing

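No paired analysis was possible because the columns carry no replicate numbers. Between the media 18 members passed; DESeq2, RLE scaling, plate row as a covariate, no filter, unrounded counts and thinning to equal depth gave 15 to 19, edgeR's filterByExpr, which kept 33 members, gave 14, and leaving out 1 library gave 16 to 20. In untreated spheroids 2 passed (2 to 3), and within the exposures 31 (25 to 32, and 26 to 36 without 1 library). For exposures against untreated spheroids 0 passed, and 0 to 1 without 1 library: RNU1-4 with hemin in Medium 1 passed without G2 (log2 fold change -2.88, edgeR adjusted p = 0.0268). For the difference of responses between media 0 passed throughout. Without B2, C2, H7 and A8, chosen after seeing the data, 14 members were higher and 4 lower between media, 27 passed within the exposures, and RNU1-3, RNU1-4 and SNORD104 lost their call. SNORD89 between media, at -0.05 and not called, ran from -0.191 to 0.013 without 1 library; its sign changed without B1 (0.013), E1 (0.003) or D6 (0.013). As mean CPM of the deposited totals, without TMM scaling, the H/ACA RNAs summed to 26.8 in Medium 1 and 34.5 in Medium 2, the scaRNAs to 60.1 and 67.4 and the other RNAs to 19.1 and 18.6; without the most abundant member of each class the order of the media turned, to 9.78 and 4.46, 36.5 and 29.1, and 7.61 and 8.34. Members at the cut hold so few counts that moderate changes could not be seen, and 1 row of a copied gene cannot be told from another.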
